A study of Homo sapiens with 4 samples.

Results

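NDRG1, CLU and BIN1 are human genes described as repressed by MYC, the oncogenic transcription factor. Here they were compared after depletion of SSRP1, a subunit of the histone chaperone FACT, in the established human neuroblastoma line BE(2)C. The 3 genes were picked from 14812 named genes because their values differed between the groups and did so in opposite directions, lower for NDRG1 and CLU and higher for BIN1. Their differences between the groups are therefore given as a description, without a test. Each of the 3 had 1 probe set annotated to it alone, so no choice between such probe sets was needed.

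The SSRP1 siRNA group held 2 samples of cells transfected with an siRNA against SSRP1, listed under a single catalogue number. The control siRNA group held 2 samples transfected with non-targeting siRNA. Both groups received the same cationic lipid reagent, came from 1 cell line and were harvested 72 hours after transfection, and no untransfected cells were analysed here. Each sample was read on 1 whole-transcript array, and all values below are log2 RMA values, so a difference of 1 is a doubling.

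MYC binds DNA together with MAX, mainly at E-boxes, and activates genes of ribosome production and metabolism. It represses other genes, largely by holding back activators such as MIZ1 (gene ZBTB17) and SP1 at their promoters. Proteins of the MXD family compete with MYC for MAX. NDRG1 is a cytoplasmic protein induced by hypoxia, iron loss and differentiation, and its family was named for repression by a MYC family protein in mouse. CLU, clusterin or apolipoprotein J, is a secreted chaperone that binds misfolded proteins and lipids. BIN1, the bridging integrator, bends membranes with its BAR domain in endocytosis, and isoforms found in the nucleus bind MYC and hold down its activity. Isoforms were not analysed here.

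The promoter of BIN1 is shown because BIN1 is the member of higher value with SSRP1 siRNA, and because repression by MYC is described at core promoters. RefSeq's promoter table matched 1 of the 3 genes. The window is 300 bases long, runs from 250 bases before the start of BIN1 to 50 after it, and lies at chr2:127107105-127107404 on the minus strand of GRCh38.p14. Capitals mark GC boxes, the letters GGGCGG on either strand, which SP1-type factors bind.
BIN1 promoter: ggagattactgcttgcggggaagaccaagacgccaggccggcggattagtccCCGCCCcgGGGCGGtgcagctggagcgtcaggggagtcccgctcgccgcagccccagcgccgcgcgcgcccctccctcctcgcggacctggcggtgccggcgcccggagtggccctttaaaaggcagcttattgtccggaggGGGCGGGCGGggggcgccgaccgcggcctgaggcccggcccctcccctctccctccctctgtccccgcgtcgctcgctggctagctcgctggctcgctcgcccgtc
The window held 4 GC boxes, of which the last pair overlap, and GC boxes were present in 45.0% of the 35116 promoter windows of the same length. It held no canonical E-box (CACGTG, its own reverse complement), which 7.26% of all windows held. The looser form CANNTG, which contains CACGTG, was found once, and 68.7% of all windows held it. No TATAAA was found on either strand, against 11.5% of all windows that held it. G and C made up 75.3% of the bases, where the median window had 58.7%, and the window held 38 CpG pairs, where the median was 14. These matches describe letters only and were not linked to the array values.

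The siRNA target was examined before the members. SSRP1 measured 7.42 and 6.97 with SSRP1 siRNA, against 9.05 and 9.23 with control siRNA. The difference was -1.95 ± 0.17 (SE), so that SSRP1 stood at 26.0% of its control level, and the limma adjusted p was 0.0479. That call was lost with the replicate number as a block (adjusted p = 0.0569), with robust variances (0.0512), over all probe sets (0.144) and whenever 1 array was left out (0.241 to 0.599). Over all genes 14 passed limma's test at an adjusted p under 0.05 (0.0945%), and 1865 had an unadjusted p under 0.05 (12.6%). Array medians lay between 3.37 and 3.42 over 46255 probe sets, and arrays correlated at 0.991 between the SSRP1 siRNA samples, at 0.993 between the control samples and at 0.990 to 0.991 across groups. Nothing in the labels tells whether the replicates were separate cultures, and the p-values then cover only a spread that could be technical.

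The labelled cell type was checked against its markers. Of 13 neuroblastoma identity genes 11 were measured, and all 11 had means above the median of all genes, from 6.52 for TH to 10.8 for DLK1, a secreted protein of the adrenal medulla and neuroblasts. Of these 11 genes 10 had a difference below 0, as had 51.7% of all genes, with a median of -0.18. DBH, which makes noradrenaline, had a difference of -0.77 ± 0.11 (SE, limma adjusted p = 0.111), and HAND2, a transcription factor of sympathetic neurons, one of -0.38 ± 0.10 (SE, adjusted p = 0.263). CHGA, a protein of secretory granules, was the 1 gene above 0, at 0.34 ± 0.11 (SE, adjusted p = 0.333). None of the 11 passed the test, while 4 had an unadjusted p under 0.05 (12.6% of all genes). In bulk samples such as these, fewer cells of a type and less RNA per cell cannot be told apart.

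NDRG1 had the lowest values relative to control of the 3 genes. It measured 4.05 and 4.59 in the SSRP1 siRNA samples, against 5.23 and 5.13 in the control samples. Both SSRP1 siRNA values lay below both control values, with a gap of 0.54 between the groups. The means were 4.32 ± 0.38 with SSRP1 siRNA and 5.18 ± 0.07 with control siRNA (SD, n = 2 each), a difference of -0.86 ± 0.19 (SE), or 55.1% of the control level. The SSRP1 siRNA samples lay 0.54 apart, with replicate 1 the lower, while the control samples lay 0.10 apart. That spread with SSRP1 siRNA was wider than for most genes, at percentile 96.6 of all standard deviations in this group. Of 14812 genes 28 had a difference further below 0.

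CLU was lower by a smaller amount and with closer replicates. It measured 5.87 and 5.65 with SSRP1 siRNA, against 6.25 and 6.21 with control siRNA. The groups did not overlap, and the gap between them was 0.34. The means were 5.76 ± 0.15 with SSRP1 siRNA and 6.23 ± 0.03 with control siRNA (SD, n = 2 each), a difference of -0.47 ± 0.12 (SE), which is 72.1% of the control level. Here the lower SSRP1 siRNA sample was replicate 2, where for NDRG1 it was replicate 1. There were 267 genes with a difference further below 0.

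BIN1 was the member that was higher with SSRP1 siRNA. It measured 7.51 and 7.55 in those samples, against 7.04 and 6.88 in the control samples. The SSRP1 siRNA samples lay 0.05 apart and the control samples 0.16 apart, and the gap between the groups was 0.46. The means were 7.53 ± 0.03 with SSRP1 siRNA and 6.96 ± 0.11 with control siRNA (SD, n = 2 each), a difference of 0.57 ± 0.11 (SE), or 1.48-fold. There were 241 genes with a difference further above 0.

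**Figure D1:**
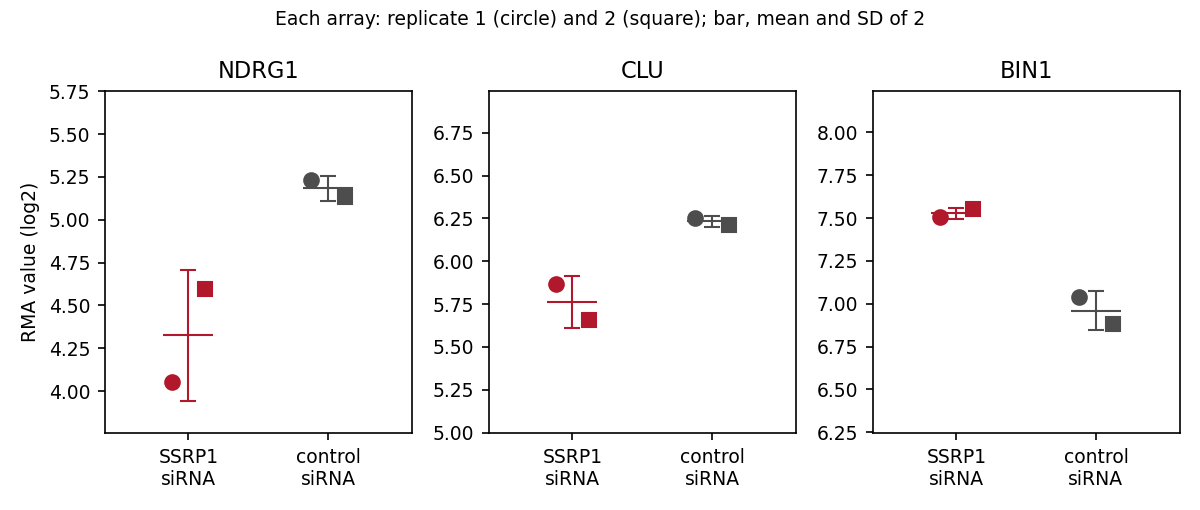
RMA values (log2) of NDRG1, CLU and BIN1 on each array, SSRP1 siRNA in red at left and control siRNA in grey at right of each panel. Circles are replicate 1 and squares replicate 2, bars give the mean and SD of 2 samples, and each panel spans the same number of log2 units. In the SSRP1 siRNA samples NDRG1 (4.05 and 4.59) and CLU (5.87 and 5.65) lie below both control samples, and BIN1 (7.51 and 7.55) lies above both.

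The groups did not overlap for 3 of 3 members, in a comparison where they did not overlap for 44.3% of all genes, and since the members were chosen on this contrast nothing is read from that count. The levels differed in brightness, with the mean over the 4 arrays at percentile 51.9 of all genes for NDRG1, 69.5 for CLU and 85.6 for BIN1. Probe sets bind with different strength, so these percentiles do not rank RNA amounts. No detection values were used, and how much background the NDRG1 value holds was not tested.

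**Figure D2:**
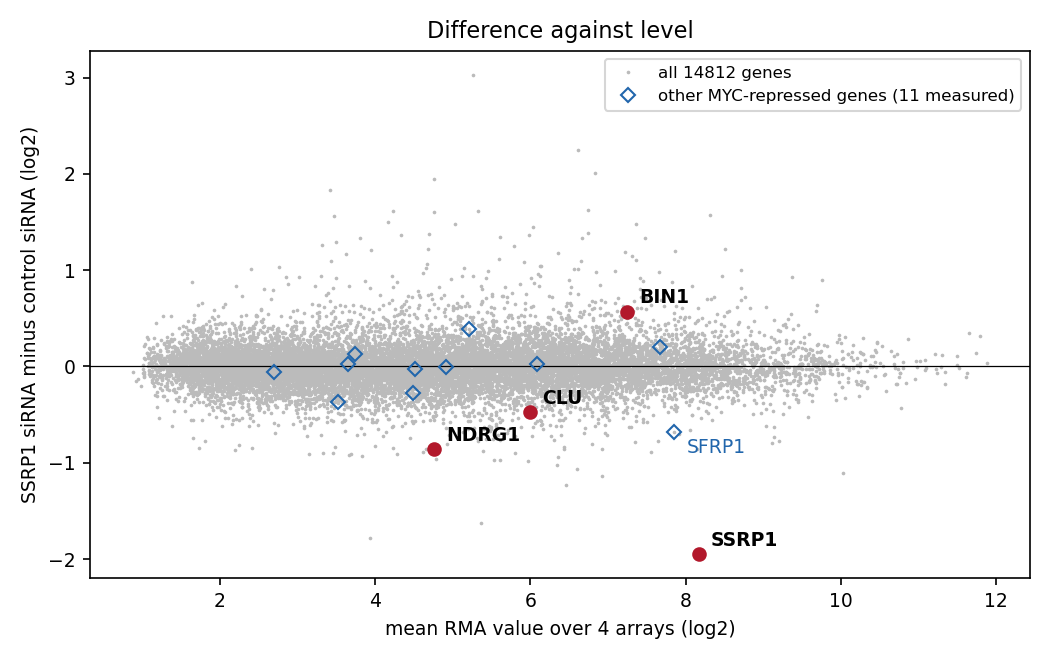
Difference between SSRP1 siRNA and control siRNA (log2) against the mean RMA value over 4 arrays (log2), with 1 grey point for each of 14812 genes. Red points mark NDRG1 (-0.86), CLU (-0.47), BIN1 (0.57) and the siRNA target SSRP1 (-1.95), and open diamonds mark the 11 other MYC-repressed genes measured, of which SFRP1 (-0.68) lies lowest.

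Other genes described as MYC-repressed were set beside the 3. Of 28 listed, 11 were measured, with 5 above 0 (48.3% of all genes were) and 6 below. Here and in the other lists, measured means having a probe set annotated to 1 gene symbol alone. A listed gene counted as not measured may still be on the array, so each list describes only its measured part. The median difference was -0.01, where that of all genes was -0.007. SFRP1, a secreted antagonist of Wnt ligands, measured 7.46 and 7.58 with SSRP1 siRNA, against 8.23 and 8.17 with control siRNA. Its difference was -0.68 ± 0.10 (SE, limma adjusted p = 0.117), and the groups did not overlap. DKK3, a secreted glycoprotein of the Dickkopf family, had a difference of -0.28 ± 0.10 (SE, adjusted p = 0.361). GAS1, a membrane protein of growth-arrested cells and a co-receptor for Hedgehog, had one of -0.37, and it was named after its value was seen. These 3 genes were the members of the list at an unadjusted p under 0.05, all lower, where 12.6% of all genes were at that level, and 0 of 11 passed in limma at an adjusted p under 0.05.

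Above 0 in that list were the transcription factor gene KLF6, at 0.20 ± 0.11 (SE), and DKK1, a secreted Wnt antagonist, at 0.39 ± 0.24 (SE). DKK1 measured 5.57 and 5.25 with SSRP1 siRNA, against 5.37 and 4.68 with control siRNA, so its groups overlapped. TXNIP, a regulator of glucose uptake, and NGFR, the low-affinity neurotrophin receptor, were at 0.02 and -0.01. The median of the list was 0.08 without SSRP1 siRNA replicate 1 and -0.09 without control siRNA replicate 1.

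Genes that MYC induces were described from the same fit. Of 28 listed 17 were measured, with 5 above 0 and 12 below, against 48.3% and 51.7% of all genes. The median was -0.07, where that of all genes was -0.007. The groups did not overlap for 13 of 17 (3 higher and 10 lower), against 44.3% of all genes. The differences ran from -0.24 to 0.25. CDK4, a G1 phase kinase, was at 0.25 ± 0.10 (SE, limma adjusted p = 0.396), and RRS1, a ribosome assembly factor, at 0.14 ± 0.11 (SE). NOLC1, a nucleolar chaperone, and TERT, the catalytic subunit of telomerase, were each at -0.24 (adjusted p = 0.420 and 0.411). In limma 0 of 17 passed, and 0 of 17 had an unadjusted p under 0.05, where 12.6% of all genes had.

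Partners and antagonists of MYC were measured for 22 of 25 listed genes, with 11 above 0, 11 below and a median of 0.007. MYC itself was dim, at 2.25 and 1.94 with SSRP1 siRNA, against 2.28 and 2.12 with control siRNA. MAX, its obligate partner, averaged 4.99 ± 0.01 with SSRP1 siRNA and 4.99 ± 0.06 with control siRNA (SD, n = 2 each). The groups overlapped for MYC and for MAX. The list did not include MYCN, another gene of the MYC family, so expression of the family as a whole was not described. MXD1, a repressor that competes with MYC for MAX, measured 5.47 and 5.50 with SSRP1 siRNA, against 4.68 and 4.83 with control siRNA. That was a difference of 0.73 ± 0.11 (SE, limma adjusted p = 0.113), with both SSRP1 siRNA values above both control values.

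MXD4, of the same family, was at 0.37 ± 0.13 (SE, adjusted p = 0.360), while MXI1, the family's MXD2, was lower at -0.32 ± 0.11 (SE, adjusted p = 0.337). That value of MXI1 is from the brighter of its 2 probe sets, and their mean was at -0.13 (limma adjusted p = 0.663). MGA, a large MAX-binding repressor, had a difference of -0.32 ± 0.15 (SE, adjusted p = 0.476). ZBTB17, which encodes MIZ1, measured 5.72 and 5.48 with SSRP1 siRNA, against 5.44 and 5.52 with control siRNA, and SP1 was at -0.23. Those values of ZBTB17 overlapped between the groups, and both genes were named after their values were seen. In limma 0 of 22 passed at an adjusted p under 0.05, while 3 higher and 1 lower had an unadjusted p under 0.05, against 6.56% and 6.03% of all genes.

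**Figure D3:**
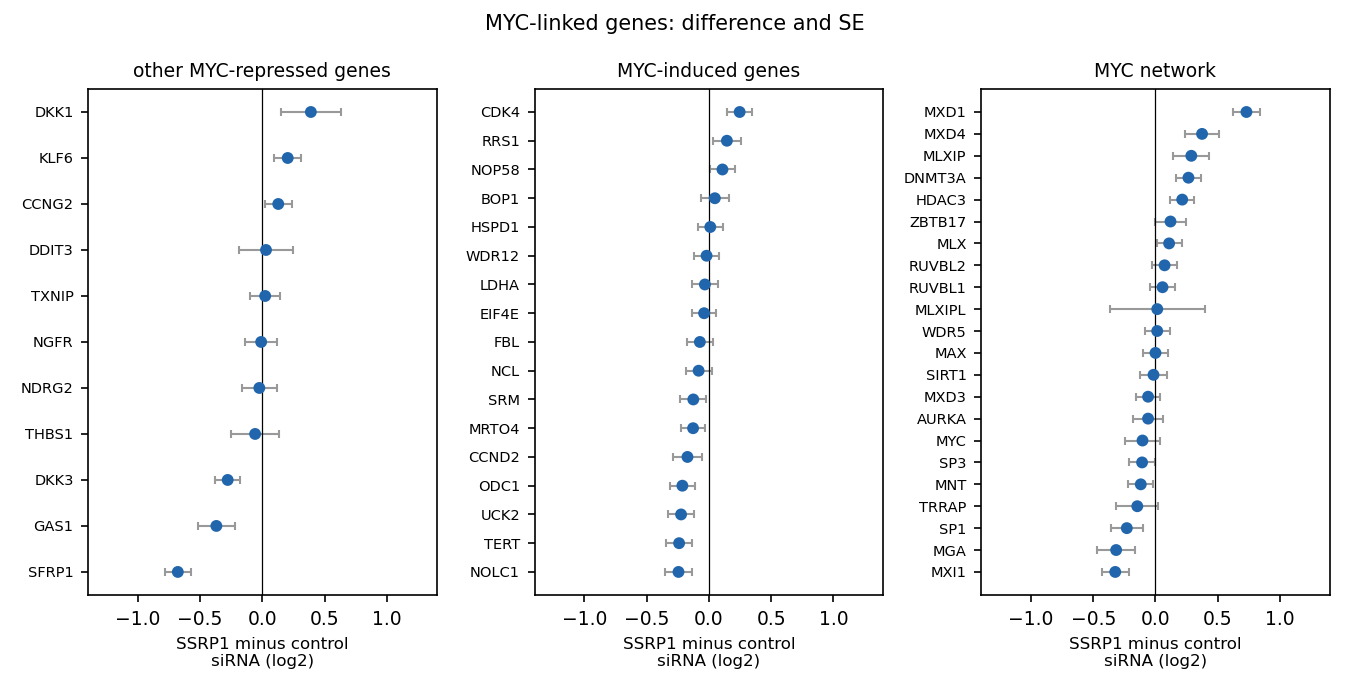
Difference between SSRP1 siRNA and control siRNA (log2, horizontal axis) for each measured gene of the lists of other MYC-repressed genes (11), MYC-induced genes (17) and the MYC network (22). Points are differences and bars are limma's SE. MXD1 (0.73) lies furthest right and SFRP1 (-0.68) furthest left, and the MYC-induced genes lie between -0.24 and 0.25.

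The relatives of NDRG1 had differences between -0.07 and 0.02. NDRG2, a related protein of brain and muscle, measured 4.66 and 4.34 with SSRP1 siRNA, against 4.46 and 4.59 with control siRNA. NDRG3 measured 7.97 and 7.96 with SSRP1 siRNA, against 8.11 and 7.95 with control siRNA. NDRG4, found in brain and heart, measured 7.50 and 7.62 with SSRP1 siRNA, against 7.64 and 7.44 with control siRNA. The groups overlapped for all 3 of these, which were not past limma's test (adjusted p from 0.845 to 0.972). The difference between NDRG1 and its relatives was not tested, since NDRG1 was chosen on this contrast.

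Factors known to act on NDRG1 were then examined. EGR1, an immediate early transcription factor described as an activator of NDRG1, measured 8.27 and 8.04 with SSRP1 siRNA, against 7.15 and 7.20 with control siRNA. Its difference of 0.98 ± 0.12 (SE) had a limma adjusted p of 0.0893, and its groups did not overlap. ATF3, a stress-induced transcription factor, was at 0.74 ± 0.15 (SE, adjusted p = 0.184). SGK1, a kinase that phosphorylates NDRG1, measured 5.12 and 4.89 with SSRP1 siRNA, against 4.41 and 4.84 with control siRNA. Its kinase relative SGK2 was at -0.23 ± 0.10 (SE) and GSK3B, which phosphorylates NDRG1 after SGK1, at -0.04. ATF4, the main factor of the integrated stress response, was at -0.07 ± 0.10 (SE). Of 14 listed genes 7 were measured, with 0 past limma's test at an adjusted p under 0.05 and 2 at an unadjusted p under 0.05 (12.6% of all genes).

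Hypoxia is the best known inducer of NDRG1, and genes induced by low oxygen were mixed. Of 25 listed 16 were measured, with 6 above 0, 10 below and a median of -0.05. CA12, a membrane carbonic anhydrase, measured 5.74 and 5.82 with SSRP1 siRNA, against 5.19 and 4.96 with control siRNA, a difference of 0.71 ± 0.12 (SE, limma adjusted p = 0.138). BNIP3L, a mitophagy receptor, was at 0.35 ± 0.11 (SE, adjusted p = 0.300). Lower were HILPDA, a lipid droplet protein, at -0.29 ± 0.11 (SE, adjusted p = 0.380), MXI1 at -0.32 and the angiogenic factor VEGFA at -0.27. For MXI1 the mean of its 2 probe sets was at -0.13. VEGFA was named after its value was seen. ADM, or adrenomedullin, was at 0.02. In limma 0 of 16 passed and 5 had an unadjusted p under 0.05, where 12.6% of all genes had. Of those 5, 2 were higher and 3 lower, against 6.56% and 6.03% of all genes.

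Receptors of clusterin and other extracellular chaperones were measured for 12 of 18 listed genes, CLU included. VLDLR, a lipoprotein receptor that binds clusterin, measured 6.24 and 6.68 with SSRP1 siRNA, against 5.72 and 5.37 with control siRNA. Its difference was 0.92 ± 0.19 (SE, limma adjusted p = 0.193), opposite in sign to that of CLU. PLXNA4, a semaphorin co-receptor also described as a clusterin receptor, was at 0.75 ± 0.20 (SE, adjusted p = 0.263). A2M, a secreted protease trap and chaperone, was at -0.28 ± 0.10 (SE, adjusted p = 0.364) from a dim level of 2.60 with control siRNA. APOE, another lipid carrier, was at -0.08. Without CLU, 5 of 11 were above 0 and 6 below, and 4 had an unadjusted p under 0.05 (12.6% of all genes), while 0 passed in limma at an adjusted p under 0.05.

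CLU is also a heat shock factor target in human cells, and 8 of 15 listed targets were measured. HSPA1A, the inducible HSP70, measured 10.7 and 9.37 with SSRP1 siRNA, against 8.997 and 9.76 with control siRNA. The near-identical HSPA1B measured 10.6 and 9.37 with SSRP1 siRNA, against 9.06 and 9.72 with control siRNA, and the array may not tell the pair apart. In both genes SSRP1 siRNA replicate 1 was highest and the groups overlapped. The small chaperone HSPB1 was at -0.25 ± 0.15 (SE), and HSPA4L, a chaperone of the HSP110 group, at -0.05 ± 0.13 (SE). In limma 0 of 8 passed, and 0 of 8 had an unadjusted p under 0.05, where 12.6% of all genes had. SSRP1 siRNA replicate 1 was also the sample with the lower NDRG1 value and the higher CLU value of its group, and the part of this in either gene was not tested.

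The relatives of BIN1 had differences between -0.09 and 0.08. BIN2, its relative in blood cells, measured 2.63 and 2.63 with SSRP1 siRNA, against 2.60 and 2.65 with control siRNA. BIN3 measured 5.33 and 5.54 with SSRP1 siRNA, against 5.37 and 5.33 with control siRNA. AMPH, or amphiphysin, the synaptic partner of BIN1, measured 2.83 and 3.13 with SSRP1 siRNA, against 2.98 and 3.16 with control siRNA. The groups overlapped for each of these 3 genes, and limma's adjusted p ran from 0.822 for BIN3 to 0.989 for BIN2.

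Endocytic partners of BIN1 were measured next. RIN3, a RAB5 exchange factor that binds BIN1, measured 2.85 and 3.01 with SSRP1 siRNA, against 2.55 and 2.54 with control siRNA. That difference of 0.39 ± 0.11 (SE, limma adjusted p = 0.271) was measured in the dim range. MTM1, a phosphoinositide phosphatase whose loss, like that of BIN1, causes centronuclear myopathy, was at 0.42 and was named after its value was seen. Its relative MTMR2 was at 0.25. DNM2, the widely expressed dynamin that BIN1 recruits, was at 0.10, and the neuronal DNM1 at -0.17. PICALM, a clathrin assembly protein, was at -0.20 ± 0.10 (SE) and MAPT, or tau, which binds BIN1, at -0.22 ± 0.11 (SE). Without BIN1, 11 of 20 measured genes were above 0 and 9 below, with a median of 0.03, and in limma 0 passed while 2 had an unadjusted p under 0.05 (12.6% of all genes).

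**Figure D4:**
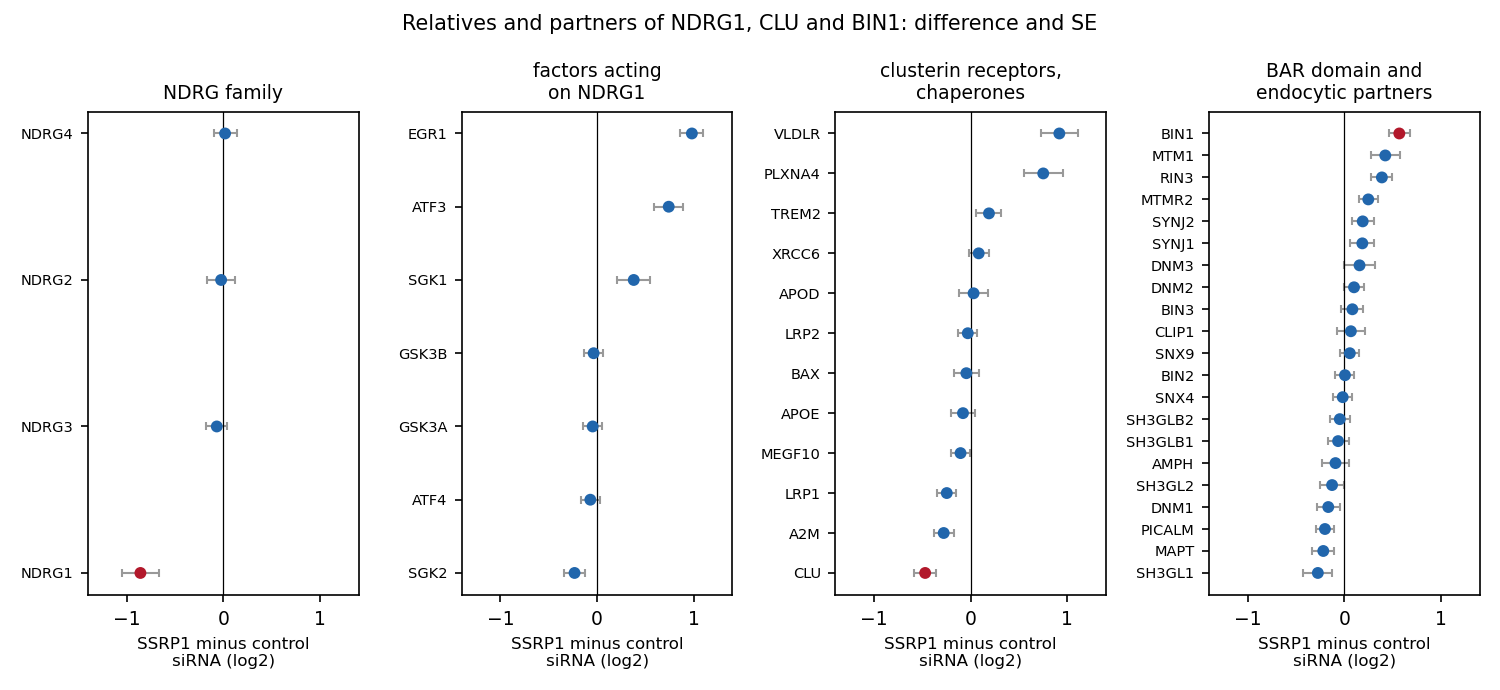
Difference between SSRP1 siRNA and control siRNA (log2, horizontal axis) for the NDRG family, factors acting on NDRG1, clusterin receptors with extracellular chaperones, and BAR domain and endocytic partners of BIN1. Points are differences and bars limma's SE, with NDRG1, CLU and BIN1 in red. NDRG1 (-0.86) is plotted with NDRG2 (-0.02), NDRG3 (-0.07) and NDRG4 (0.02), and VLDLR (0.92) and CLU (-0.47) lie at opposite ends of their panel.

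Over the 9 gene lists together, 112 different genes besides the 3 members were measured. In limma 0 of 112 passed at an adjusted p under 0.05, with a lowest adjusted p of 0.0893 for EGR1. At an unadjusted p under 0.05 there were 19 of 112 (17.0%), where the share of all genes was 12.6%.

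Markers of other cell types were read beside NDRG1 and CLU, which glial cells also express. Of 12 Schwann and glial markers 7 were measured, with 3 above 0 and 4 below, and 3 of 7 had means at or above the median of all genes. Their summed linear values were 165 and 159 with SSRP1 siRNA, against 149 and 152 with control siRNA. Most of the rise in these sums came from 1 gene, S100B. S100B was at 0.47 ± 0.12 (SE, limma adjusted p = 0.262) and ERBB3, a neuregulin receptor, at 0.12 ± 0.16 (SE). The astrocyte water channel AQP4 was at -0.47 ± 0.11 (SE, adjusted p = 0.225) from a dim 2.30 with control siRNA, and the myelin gene MBP was at -0.02 ± 0.13 (SE).

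Of 10 fibroblast and stroma markers 3 were measured, with summed linear values of 494 and 437 with SSRP1 siRNA, against 296 and 210 with control siRNA. Most of the rise in these sums came from 1 gene, LUM, a matrix proteoglycan and the brightest of the 3. LUM was at 1.20 ± 0.25 (SE, limma adjusted p = 0.184), THY1 at 0.25 ± 0.10 (SE) and DCN, dim at 2.59, at -0.04 ± 0.11 (SE).

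Of 11 blood and endothelial markers 5 were measured, with sums of 98.7 and 101 with SSRP1 siRNA, against 123 and 104 with control siRNA. Most of each sum was CD68, which measured 6.10 and 6.10 with SSRP1 siRNA, against 6.49 and 6.14 with control siRNA. CD68 was named after its value was seen. CD2, LYZ and KDR, all dimmer than CD68, were at -0.27, -0.23 and 0.09. LYZ had 2 probe sets, and with probe set means the median of the 5 was -0.13 instead of -0.21. The part of these markers in the values of the 3 members was not tested.

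Patterns over the 4 arrays were compared for all genes, as the Euclidean distance between log2 values centred on each gene's mean. Genes nearest to NDRG1 were MIR4518 (distance 0.15), MIR4309 (0.26), DLGAP1-AS5 (0.29) and IGFBP5 (0.30), the last of them a secreted binding protein of insulin-like growth factors. IGFBP5 measured 5.59 and 5.85 with SSRP1 siRNA, against 6.37 and 6.34 with control siRNA. Nearest to CLU were SIGLEC5 (0.008), AQP4 (0.014), VPS25 (0.028) and ARHGAP11A (0.029). VPS25, a subunit of the ESCRT-II complex, measured 9.12 and 8.89 with SSRP1 siRNA, against 9.53 and 9.46 with control siRNA. Nearest to BIN1 were MAST4 (0.021), TMEM47 (0.023), SERTAD4 (0.028) and NKX6-1 (0.033). NKX6-1, a homeobox transcription factor, measured 7.47 and 7.54 with SSRP1 siRNA, against 6.98 and 6.83 with control siRNA. NDRG1 had no gene as near to it as the closest genes of CLU and BIN1 were to theirs, and with 4 arrays such likeness describes these samples only.

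Chromosomal neighbours were taken from the gene order of RefSeq's GRCh38.p14, as the nearest 2 measured genes on each side. Genes not measured were skipped and distances were not examined, so a neighbour named here may lie far from its member. Beside NDRG1, on chromosome 8, SLA, an adaptor of lymphoid receptors, was at -0.59 ± 0.15 (SE, limma adjusted p = 0.246), in the same direction as NDRG1. CCN4, ZFAT and ZFAT-AS1 were at -0.14, -0.09 and 0.05, each with overlapping groups. Beside CLU, also on chromosome 8, the kinase gene PTK2B was at 0.35 ± 0.11 (SE, adjusted p = 0.308), opposite in sign to CLU. TRIM35, MIR3622A and CCDC25 were at -0.004, -0.17 and -0.04, each with overlapping groups. Beside BIN1, on chromosome 2, PROC, the gene of anticoagulant protein C, was at -0.47 ± 0.10 (SE, adjusted p = 0.200), opposite in sign to BIN1. MAP3K2, CNTNAP5 and TSN were at 0.19, 0.30 and -0.03. The groups did not overlap for MAP3K2, in the same direction as BIN1, and overlapped for CNTNAP5 and TSN. Over the 12 neighbours the groups did not overlap for 4, against 44.3% of all genes. Of the 12 neighbours 0 passed in limma at an adjusted p under 0.05 and 3 had an unadjusted p under 0.05 (12.6% of all genes).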

How the data were processed

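RNA was measured in 2 SSRP1 siRNA and 2 control siRNA samples, grouped by title. Values are log2 per probe set, deposited as the authors' RMA output according to the submitters' processing notes. The RMA software and its probe set definition are not stated in the labels, and the log2 scale was read from the values (0.502 to 12.8). RMA as usually run equalizes array distributions, so a shift of all transcripts would not show. No detection values were used. With 4 arrays their number limits precision.

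Of 46255 probe sets, 15835 had 1 gene symbol in the platform annotation and were kept as named. The other 30420 had no symbol, or several symbols or gene identifiers, and were left out of the gene table. Genes found only among those count as not measured. The named probe sets covered 14812 genes, with the brightest probe set taken for the 651 genes with several. limma (version 3.58.1 in R 4.3.3; lmFit and eBayes, no filter, no trend) was fitted to all genes, two-sided, with Benjamini-Hochberg adjustment over all of them. The fit had 2 residual and 3.79 prior degrees of freedom. The fit was tried on simulated data with known differences and the same spread for every gene. Spreads differ between genes in the real data, so that trial does not vouch for the calls made here. A list is described by its counts and median.

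Members, lists and rules were chosen with earlier results of these data known. Named genes were the 3 members, SSRP1, MYC, the 2 genes of smallest p per list and direction, the NDRG and BIN relatives, the 4 nearest patterns and the nearest 2 neighbours per side. Every other list gene was named after its value was seen. Alternatives were the replicate block, variance trend, robust variances, quantile normalization, median centring, probe set means, brighter genes only, all probe sets, an adjusted p under 0.1 and each array left out.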

Additional observations from a re-analysis of the deposited data

How the results depend on the processing

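The differences of NDRG1, CLU and BIN1 kept their direction under all 12 alternatives run. Only quantile normalization (-0.84, -0.49 and 0.55) could have reversed them. Median centring (-0.84, -0.45 and 0.59) shifts all genes alike. With array medians between 3.37 and 3.42 it could not change these signs. With groups that did not overlap, leaving out 1 array could not change a sign. Leaving out 1 array gave -1.13 to -0.59 for NDRG1, -0.58 to -0.37 for CLU and 0.49 to 0.65 for BIN1. The differences are the same by construction (-0.86, -0.47 and 0.57) with the replicate block, variance trend, robust variances and brighter genes only. This holds for all probe sets and for probe set means too, since each member had 1 probe set. With the replicate block the SE was 0.17, 0.11 and 0.11. Deviations of same-numbered samples correlated at 0.11 over genes. With 2 pairs this cannot decide whether the replicate numbers mark a real pairing. The 14 genes past limma's test became 6 with the replicate block, 215 with a variance trend, 9 with robust variances, 28 after quantile normalization (19 higher), 23 after median centring (17 higher), 179 among brighter genes alone, 41 at an adjusted p under 0.1, 0 over all probe sets (limma, 3854 at an unadjusted p under 0.05) and 0 without any 1 array (limma, 1200 to 1672 at an unadjusted p under 0.05). The main split was 12 higher and 2 lower. The SSRP1 difference stayed at -1.95 with the replicate block, with robust variances and over all probe sets, where its adjusted p was 0.0569, 0.0512 and 0.144, and was -2.17 to -1.72 without 1 array (adjusted p 0.241 to 0.599).

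The median of the other MYC-repressed genes was -0.089 to 0.082 without 1 array. That of MYC-induced genes was -0.0998 after quantile normalization, -0.052 after median centring, -0.056 among brighter genes and -0.076 to -0.049 without 1 array. Of 49 further genes named by rule under 12 settings, 540 values kept direction and side of the threshold, 12 passed and 21 changed sign. Those that passed, with a variance trend or among brighter genes, belonged to SFRP1, MXD1, CA12, EGR1, DBH, HAND2 and LUM. NDRG4 was -0.0019 and MBP 0.0046 after quantile normalization, and MBP was 0.0021 after median centring. Without 1 array the ranges were -0.26 to 0.052 for MYC, -0.19 to 0.14 for NDRG2, -0.15 to 0.014 for NDRG3, -0.085 to 0.12 for NDRG4, -0.020 to 0.033 for BIN2, -0.019 to 0.18 for BIN3, -0.24 to 0.055 for AMPH, -0.0071 to 1.29 for HSPA1A, -0.022 to 1.18 for HSPA1B, -0.20 to 0.11 for HSPA4L, -0.062 to 0.29 for ERBB3, -0.13 to 0.094 for MBP, -0.11 to 0.026 for DCN and -0.0078 to 0.19 for KDR. The cause of these shifts was not tested. Dim genes such as MYC, BIN2 and RIN3 can carry background, which limits their differences.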
